A study of Caenorhabditis elegans with 2 samples.

Results

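The peaks of eGFP-tagged LSY-2 on the X chromosome of *Caenorhabditis elegans* comprised every peak of the authors' reproducible list that lay on X, 268 of its 2550 nuclear peaks. They are set beside the 2282 autosomal peaks of the same list, and 18 mitochondrial peaks that complete it were left out. Chromatin immunoprecipitation and sequencing (ChIP-seq) had been run on 2 biological replicates of 1 group, mixed-stage embryos of strain OP367 (unc-119(tm4063) III; wgIs367), as whole animals of both sexes pooled. The label of the antibody names lsy-2, and no group without the tag was analysed here. The list holds peaks that passed a threshold on the irreproducible discovery rate (IDR), a measure of how well peak ranks repeat between replicates, on genome build ce11. The integrated transgene adds tagged LSY-2 to the worm's own genes, the tissues that express it cannot be separated in whole embryos, and reads at the *lsy-2* locus from the chromosome and from the transgene cannot be told apart.

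LSY-2 is a transcription factor with C2H2 zinc fingers, needed for the difference between the left and right ASE taste neurons. The X chromosome of this nematode is the subject of dosage compensation: in hermaphrodite embryos a condensin-like complex binds both X chromosomes along their length and lowers their transcription. The complex first lands at recruitment sites, which share a longer motif whose centre reads GCGCAGG, and then spreads to other places on X, many of them promoters. X is also known for carrying few genes with germline or housekeeping roles and many tRNA genes. Coordinates of the recruitment sites are in none of the tables used, so overlap with them was not analysed here.

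The 9 strongest X peaks carried the same short sequence near the summit, the base where a peak is highest. Of the 18 X peaks that followed, 0 carried it, 7 carried a second short sequence and the others carried neither. The 5 windows below reach 50 bp to each side of a summit and belong to the strongest X peaks whose window was clear of annotated UTRs. Capitals mark TACGGT or, on the other strand, ACCGTA, a word chosen after these windows had been read.
serp-1.1 (chrX:15841226-15841326, + strand, rank 13): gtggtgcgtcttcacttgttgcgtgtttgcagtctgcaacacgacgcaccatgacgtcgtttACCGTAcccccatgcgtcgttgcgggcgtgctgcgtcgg
rpl-11.2 (chrX:2242921-2243021, + strand, rank 24): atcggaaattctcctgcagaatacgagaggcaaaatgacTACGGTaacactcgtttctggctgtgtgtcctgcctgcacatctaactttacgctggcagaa
glit-1 (chrX:4712055-4712155, + strand, rank 87): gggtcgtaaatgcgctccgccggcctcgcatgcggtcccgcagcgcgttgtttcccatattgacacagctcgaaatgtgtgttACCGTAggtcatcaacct
trap-2 (chrX:768218-768318, + strand, rank 117): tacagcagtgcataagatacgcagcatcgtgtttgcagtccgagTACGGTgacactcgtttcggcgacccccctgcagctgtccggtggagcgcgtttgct
R08E3.3 (chrX:4818388-4818488, + strand, rank 128): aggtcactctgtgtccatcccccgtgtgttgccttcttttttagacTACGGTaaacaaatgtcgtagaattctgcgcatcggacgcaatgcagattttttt

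A second set of X peaks held GCGCAGG, the motif centre named above. The lines below give 31 bases around single copies, read on the strand of the copy, with GCGCAGG in capitals. The first 8 come from peaks ranked 237 to 350, with both copies of the *mom-1* peak. Of that pair, the copy nearer the summit has no C before it. The last 2 come from weaker peaks, at ranks 1335 and 1441, and neither has C before it. Copies in other weaker peaks, not printed, had C before them at ranks 438, 619, 1888 and 2355, and T at rank 1136.
nspc-17 (chrX:14525889-14525919, - strand, rank 237): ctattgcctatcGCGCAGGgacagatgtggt
F20B6.9 (chrX:4209255-4209285, - strand, rank 242): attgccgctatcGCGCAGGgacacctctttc
Y41G9A.17 intron (chrX:2997112-2997142, - strand, rank 284): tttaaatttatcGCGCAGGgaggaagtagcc
F22H10.2 (chrX:16682088-16682118, - strand, rank 289): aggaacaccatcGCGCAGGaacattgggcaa
gtr-1 (chrX:806662-806692, + strand, rank 293): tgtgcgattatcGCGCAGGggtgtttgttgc
mom-1 intron (chrX:6296536-6296566, + strand, rank 303): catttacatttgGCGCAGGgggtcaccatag
mom-1 intron, other copy (chrX:6296564-6296594, + strand, rank 303): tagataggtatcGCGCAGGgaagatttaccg
xol-1 (chrX:8036423-8036453, + strand, rank 350): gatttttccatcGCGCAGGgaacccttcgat
sec-16A.2 (chrX:8286901-8286931, + strand, rank 1335): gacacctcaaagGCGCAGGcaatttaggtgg
dpy-23 (chrX:4395603-4395633, + strand, rank 1441): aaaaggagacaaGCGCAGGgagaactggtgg
Sequences are those of RefSeq for WBcel235, the assembly that ce11 names, and genes in the lines are the nearest protein-coding genes or hosts, not assigned targets.

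X held fewer LSY-2 peaks per Mb than the autosomes together, and a smaller share of its peaks lay among the strongest. Its 268 peaks were 10.5% of the 2550 nuclear peaks (95% Wilson interval 9.38 to 11.8), while X holds 17.7% of nuclear sequence and 13.7% of nuclear protein-coding genes (2731 of 19973). The density was 15.1 peaks per Mb on X and 27.6 on the autosomes together. Among single autosomes it ran from 15.3 on V to 41.8 on III, so V was as sparse as X by this measure. Read depth is unknown from peak lists, so intervals here treat peaks or genes as independent and cover only their sampling. Peaks are not replicates, and a difference is called where its 95% Newcombe interval leaves out 0.

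The shortage on X was greatest among the strongest peaks. Ranked by the authors' signal, a value whose scale is set within each list, X held 13 of the 246 nuclear peaks ranked 1 to 250 in the pooled list, or 5.28% (3.11 to 8.83). Chromosome V held 22 of them and the other single autosomes from 43 to 64. With 4994 protein-coding genes on V and 2731 on X, a low count among the strongest peaks was not particular to X. The IDR list is the top of the pooled list by signal. Of its further peaks above its median rank X held 9.19%, of those below that median 12.6%, and of the weakest 10000 in the pooled list of 30000 it held 14.8%. In replicate 1 the X share went from 6.07% of the 250 strongest peaks to 15.8% of the weakest 10000. In replicate 2 it went from 4.90% to 15.6%, so both replicates showed the same order at the ends of the list. The lists of 30000 peaks hold background besides peaks, so their tail is no count of bound places.

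**Figure D1:**
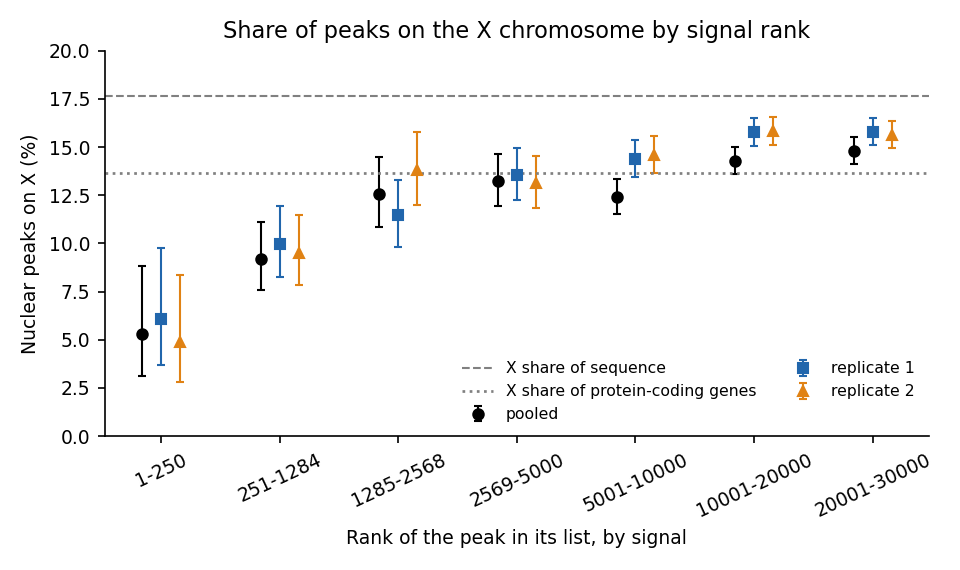
Share of nuclear peaks on X (vertical axis, %) in bins of signal rank (horizontal axis) for the pooled list and each replicate's list, with 95% Wilson intervals; the dashed line is the X share of nuclear sequence (17.7%) and the dotted line its share of protein-coding genes (13.7%). The 250 strongest peaks have the lowest X share in all 3 lists, 5.28%, 6.07% and 4.90%, below both lines.

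Within the IDR list the median signal was 52.5 on X (quartiles 41.7 and 66.4) and 57.5 on the autosomes (42.4 and 91.8), so the middle of the distributions was close and the upper tail differed. Of the X peaks, 39.9% lay above the list's median rank, against 50.9% of the autosomal peaks, a difference of -11.0 percentage points (-17.03 to -4.69). In the list of replicate 1, cut to the length of the IDR list and split at its own median rank, the difference was -6.09 points (-12.3 to 0.290), an interval that includes 0, and in that of replicate 2 it was -12.99 points (-18.8 to -6.88). Among the 642 of highest signal the shares were 15.7% and 25.7%. The gap lay in promoter peaks, with medians of 53.0 on X and 63.2 on the autosomes, and 39.8% against 56.8% above the median rank (-17.1 points, -24.7 to -9.01). Away from promoters the medians were 51.9 and 48.0, and the shares were 40.2% and 35.4%, with an interval of the difference that included 0 (4.79 points, -4.79 to 14.9).

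Both replicates placed 181 of the 268 X peaks (67.5%) among their strongest, counted to the length of the IDR list, against 73.0% of the autosomal peaks, a difference of -5.51 points (-11.6 to 0.126). Each replicate's list held a peak overlapping 267 of the 268 X peaks, and the median ratio of the replicate signals was 1.03. The length of 380 bp that most peaks of the list share was that of 84.7% of X peaks and 66.4% of autosomal ones. Sequence that RefSeq soft-masks as repeats or of low complexity held 10.4% of X summits and 23.5% of autosomal ones, and its part in the comparisons was tested only by leaving those summits out.

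The highest X peak, with a signal of 2256 and rank 13 in the whole list, lay on chrX:15841039-15841527. Its signal was 1129 in replicate 1 and 1130 in replicate 2. The summit stood at -296 bp from the 5' end of *serp-1.1* (WBGene00010337), whose product resembles the stress-associated endoplasmic reticulum (ER) protein SERP1. The next, with a signal of 1738 (891 and 849 in replicates 1 and 2), lay at -353 bp from *rpl-11.2*, which encodes a protein of the large ribosomal subunit. The promoter of *lsy-2* itself followed, with a signal of 1424 (724 and 696) and the summit at -25 bp. These peaks ranked 13, 24 and 42 in the whole list, and each ranked within 3 places of that in both replicates.

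The peak at rank 87 (signal 1018; 507 and 514 in the replicates) lay between *glit-1*, a gliotactin homologue, and *dnj-14*, which encodes a J-domain protein, at -174 and -357 bp. The peak at rank 117 (782.8; 360.0 and 420.1) lay between *trap-2*, a subunit of the translocon-associated protein complex of the ER, and *ile-2*, an intracellular lectin, at -199 and -328 bp. These were the only summits of the 20 highest X peaks in windows of more than 1 gene. R08E3.3 followed at rank 128 (689; 328 and 361) and T14G11.1 at rank 167 (478; 246 and 234). An intron of *lsy-2* held the peak at rank 203 (311; 141 and 168), and the promoter of *fubl-3* the one at rank 204 (310.2; 125 and 187). At rank 222 lay *hsp-3* (272; 119 and 149), which encodes an ER chaperone of the BiP kind, and at rank 302 *pdi-2* (177; 76.4 and 102), a protein disulfide isomerase gene. In replicate 2 the 9 strongest X peaks all had higher signals than any of the 18 that followed. In replicate 1 the first 8 did, and *fubl-3* lay below a peak near F20B6.9, which had 135.

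**Figure D2:**
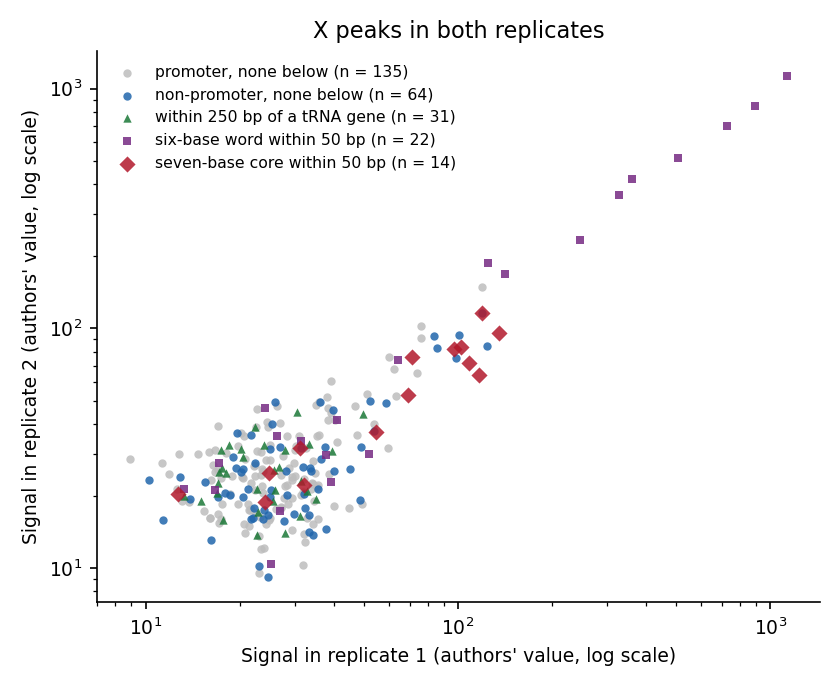
Signal of each X peak that overlapped a peak in both replicates (n = 266), in replicate 1 (horizontal, log scale) and replicate 2 (vertical, log scale); squares have the six-base word TACGGT and diamonds GCGCAGG within 50 bp of the summit, triangles lie within 250 bp of a tRNA gene without either. The 9 strongest peaks are all squares, and 7 diamonds lie among the 18 X peaks that come next in the pooled list.

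All 9 strongest X peaks, from *serp-1.1* to *fubl-3*, held TACGGT within 50 bp of the summit on one strand or the other. None of the 18 X peaks next in order did. In replicate 2's list the same count was 9 peaks followed by 15 without the word. In replicate 1's the first 8 X peaks held it, and only 1 without it came before the next that did. Over the chromosome 22 of 268 X windows held TACGGT, or 8.21% (5.48 to 12.1), against 396 of 2282 autosomal windows, or 17.4%, a difference of -9.14 points (-12.3 to -4.96). Of all non-overlapping windows of the same length, 2.34% on X and 2.86% on the autosomes held the word.

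The share of windows with the word was lower on X in each of 3 ranges of rank. Among peaks ranked 1 to 250, 9 of 13 X windows held TACGGT (69.2%) and 182 of 233 autosomal ones (78.1%), and the difference of -8.88 points had an interval of -36.2 to 10.1. From there to the median rank the shares were 8.51% and 13.2% (-4.73 points, -9.48 to 2.94), and below it they were 3.11% and 8.13% (-5.02 points, -7.51 to -0.801). The interval left out 0 in the lowest range alone. X promoter windows with the word had a median signal of 478 (n = 13), against 51.1 without it (n = 148), and on the autosomes the medians were 374 and 57.1. Since the word was read off the strongest X windows, these values describe it and are no independent support.

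Other X peaks with TACGGT, named after their values were seen, included 2 at *vab-3*, the PAX6 homologue, at ranks 386 and 1124. Further ones lay at *nhr-25*, a nuclear hormone receptor of the FTZ-F1 kind, at rank 996, in an intron of *sex-1* at rank 719, and nearest to *vab-15*, an Msx-type homeobox gene, at rank 668. The word was also under peaks nearest to *bra-1* at rank 1120 and C33E10.8 at rank 1132, and in an intron of C05A9.2 at rank 1701. These names are a selection, and whether the word goes with a class of genes was not tested. No X window held both TACGGT and GCGCAGG, and 3 autosomal windows did.

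GCGCAGG was found within 50 bp of 14 X summits, or 5.22% (3.14 to 8.58), and of 20 autosomal ones, or 0.876% (0.568 to 1.35). The difference was 4.35 points (2.21 to 7.71). Non-overlapping windows of that length held GCGCAGG in 0.184% of cases on X and 0.187% on the autosomes, so the 7 bases themselves are as common on one as on the other. Away from promoters 10 of 107 X windows held it (9.35%) and 4 of 630 autosomal ones (0.635%), a difference of 8.71 points (4.41 to 15.7). Within promoters the shares were 4 of 161 and 16 of 1652, and their difference of 1.52 points had an interval from -0.112 to 5.26.

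Away from promoters the X peaks with GCGCAGG had a higher median signal than those without it, and the groups overlapped. The 10 had a median signal of 161, from 35.95 to 226, against 49.3 for the 97 others, and the 4 autosomal ones had 54.5. Of the 13 highest X peaks away from promoters, with signals from 311 down to 146, 6 held the motif in the window and 7 anywhere in the peak. Of the other 94, 4 held it in the window. Those without it in the window included the highest, in the *lsy-2* intron (311), and the peaks nearest to W02H3.3 (230), K02D3.1 (212) and *mgrn-1* (192), whose product is a homologue of the mahogunin ubiquitin ligase. Of the 10 highest such peaks of all chromosomes 0 were on X, and of the 20 highest 2, neither with GCGCAGG. The 50 highest included 13 on X, of which 6 held it, and the 100 highest 17, of which 7 did. Among the autosomal peaks of each of these sets 0 held it. These cut points were set after the values were seen.

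The strongest peak of this kind in a promoter window lay at -712 bp from *nspc-17*, a gene of a nematode-specific peptide family, with signals of 119 and 116 in replicates 1 and 2. Next came one at -1800 bp from F20B6.9, with 135 and 95.8. An intron of Y41G9A.17 held one with 109 and 72.0, and the space 2556 bp downstream of the 5' end of F22H10.2 one with 102 and 83.4. The peak 3897 bp downstream of the 5' end of *gtr-1* had 97.4 and 81.7. In an intron of *mom-1*, whose product is a Porcupine homologue needed for Wnt secretion, and nearest to the 5' end of *cest-16*, a peak with 117 and 63.6 held a pair of copies. All of these ranked among the 417 strongest peaks of both replicates, and 13 of the 14 X peaks with GCGCAGG had support from both, counted to the length of the IDR list.

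A peak whose nearest protein-coding 5' end was that of *xol-1*, the switch gene of sex determination and dosage compensation, carried a pair of copies on opposite strands. It lay at -4873 bp from the *xol-1* 5' end on chrX:8036265-8036573, had signals of 71.4 and 75.8 in replicates 1 and 2, and its window, with both copies in capitals, is printed next because it also lies near a tRNA gene.
xol-1 upstream (chrX:8036390-8036490, + strand, rank 350): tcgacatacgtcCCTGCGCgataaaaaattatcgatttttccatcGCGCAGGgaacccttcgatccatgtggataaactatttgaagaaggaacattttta
A further peak, nearest to W02H3.3 and ranked 239, held a pair of copies in the peak but outside its window, and 5 X peaks in all held 2 or more copies. All 5 were among the 13 highest X peaks away from promoters.

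The bases beside the motif were also counted, in X copies, of which only a part is printed above, and in autosomal copies, which are not printed. Of the 16 copies in X windows, G followed in 11, C came before in 12 and TC in 11. Of the 20 copies in autosomal windows, G followed in 0, C came before in 6 and TC in 2. Among all 357 copies on X, in peaks or not, G followed in 81, C came before in 95 and TC in 48. Among all 1642 autosomal copies the counts were 233, 279 and 68, so TC before the motif was also more frequent among all X copies. The extended word GCGCAGGG was in 9 X windows (3.36%) and 0 of the autosomal ones, for which the upper limit of the Wilson interval is 0.168%. These extensions were chosen after the copies under X peaks had been read, so their counts, here and over whole chromosomes, describe them and are no independent support. Of the 16 copies in X windows, 8 had both TC before and G after.

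Counted over whole chromosomes, X carried 357 copies of GCGCAGG and the autosomes 1642, or 20.1 and 19.9 per Mb. An IDR peak covered 29 of the X copies (8.12%, 5.72 to 11.4) and 46 of the autosomal ones (2.80%, 2.11 to 3.72), while such peaks cover 0.552% of X and 0.928% of autosomal sequence. GCGCAGGG had 81 copies on X, of which 20 lay in a peak (24.7%), and 233 on the autosomes, of which 3 did (1.29%). With TC before and G after there were 19 copies on X, of which 12 lay in an IDR peak, or 63.2% (41.0 to 80.9), and 14 lay in a peak of each replicate's list of 30000. The autosomes held 6 such copies, of which 0 lay in an IDR peak, 0 in a peak of replicate 1 and 1 in a peak of replicate 2.

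**Figure D3:**
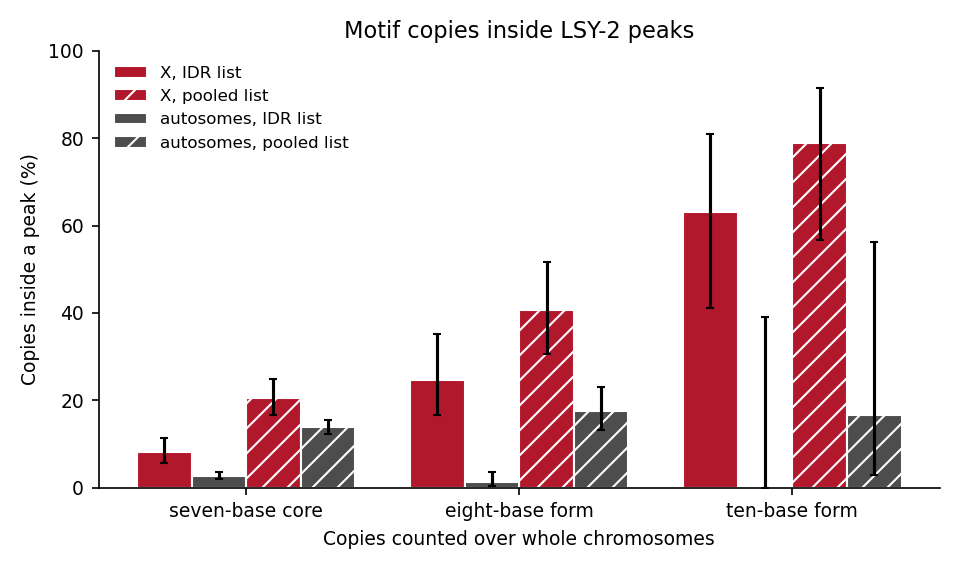
Share of motif copies on X and on the autosomes that lie in a peak of the IDR list or of the pooled list of 30000 peaks (%, bars, with 95% Wilson intervals); the seven-base core is GCGCAGG, the eight-base form has G after it, and the ten-base form also has TC before it. In the IDR list the shares are 8.12%, 24.7% and 63.2% on X and 2.80%, 1.29% and 0 on the autosomes; both longer forms were read off X copies under peaks, so the higher shares on X are no independent support.

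X summits lay in promoters less often than autosomal ones. A promoter window is counted from each protein-coding 5' end, 1000 bp to the upstream side and 300 bp to the other, and summits outside it were assigned to an exon, an intron or other sequence. Promoter windows held 161 X summits (60.1%) and 1652 autosomal ones (72.4%), a difference of -12.3 points (-18.5 to -6.34). Sequence outside protein-coding genes and promoter windows, the other class, held 79 X summits (29.5%) and 324 autosomal ones (14.2%), a difference of 15.3 points (9.93 to 21.2). This class can include genes for noncoding RNAs such as tRNAs. Introns held 28 (10.4%) and 284 (12.4%), and exons 0 and 22.

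The sequence itself differs in the same direction, since promoter windows make up 23.5% of X and 29.0% of autosomal sequence and the other class 32.3% and 23.5%. Per Mb of promoter window there were 38.7 X summits and 69.0 autosomal ones, a ratio of 0.561, with 0.547 in replicate 1's list and 0.611 in replicate 2's. In introns the ratio was 0.488 (0.466 and 0.409 in the replicates). In the other class it was 0.826 (0.823 and 0.900), so X came nearest to the autosomes there. Of the 79 X summits of that class 19 lay near tRNA genes. Promoter summits lay at similar distances, with medians of -202 bp on X and -170 bp on the autosomes from the nearest 5' end and 91.9% and 92.4% lying upstream of it.

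**Figure D4:**
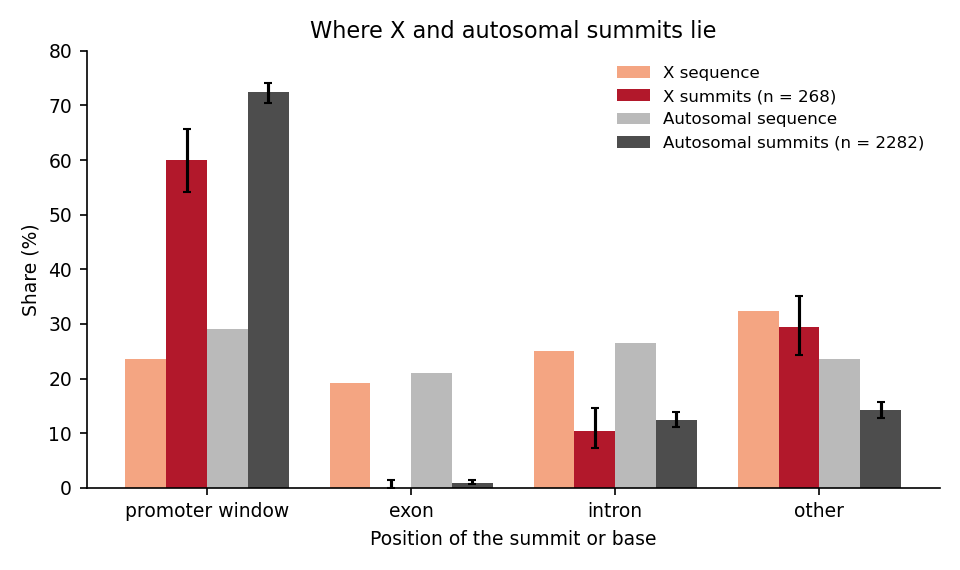
Share of X and autosomal summits in promoter windows, exons, introns and other sequence (%, dark bars, with 95% Wilson intervals) beside the share of X and autosomal bases in each class (pale bars). X summits fall in promoter windows in 60.1% of cases against 72.4%, and in other sequence in 29.5% against 14.2%.

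Peaks shared by neighbouring genes were scarce on X. Windows of 2 or more genes at once held 22 of the 161 X promoter summits (13.7%), as at *glit-1* and *dnj-14*, against 714 of 1652 (43.2%) on the autosomes, a difference of -29.6 points (-34.6 to -23.0). Bases in the windows of 2 or more genes made up 4.70% of the window sequence on X and 11.9% on the autosomes. Counted by gene, 179 of 2731 X genes had a summit in their window, against a background of 13.5% of the 17242 autosomal genes. The X share was 6.55%, a difference of -6.95 points (-7.96 to -5.84). Single autosomes ran from 7.01% on V to 20.9% on III, so V was close to X in this measure too.

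Ribosomal protein and proteasome genes are nearly missing from X. The counts that follow are to be read against backgrounds of 6.55% of X genes and 13.5% of autosomal genes with a summit. Only 2 of 81 cytosolic ribosomal protein genes are X-linked, of which *rpl-11.2* had a summit and *rpl-25.1* had none, while 72 of 79 autosomal ones had one. X carries 0 genes named as proteasome subunits or mitochondrial ribosomal proteins, of which 27 of 33 and 31 of 70 had a summit on the autosomes. All 3 X-linked translation factor genes had one: *eef-1A.2*, an elongation factor gene, at rank 609, and *ife-2* and *ife-4*, both encoding proteins that bind the mRNA cap, at ranks 1315 and 2438. On the autosomes 24 of 34 did. Of 3 X-linked genes of the vacuolar ATPase, *vha-15* at rank 309 and *vha-12* at rank 1412 had a summit and *vha-20* had none, against 5 of 17 on the autosomes, and the difference of 37.3 points had an interval from -14.4 to 68.9.

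Of the lists of regulators and tissue genes, nuclear hormone receptor genes were the one whose share differed between X and autosomes. A summit lay in the window of 6 of 23 X-linked *nhr* genes (26.1%) and 6 of 246 autosomal ones (2.44%), a difference of 23.6 points (9.83 to 44.1). Over all protein-coding genes the shares were 6.55% on X and 13.5% on the autosomes. The X share of *nhr* genes thus lay above its background and the autosomal share below its own. The X members were *nhr-25* (signal 67.7), *nhr-255* (57.5), *nhr-1* (50.3), *nhr-48* (50.2), *nhr-3* (42.8) and *nhr-40* (35.5), of which the first ranked 996 and the others from 1255 to 2386. The summit at *nhr-255* also lay within 250 bp of a tRNA gene. Homeobox genes named *ceh* had 1 of 18 on X and 7 of 45 on the autosomes, and *hlh* genes 0 of 6 and 2 of 19.

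Genes of neuronal function had X shares whose intervals include the X background of 6.55%, and autosomal shares whose intervals lie below the autosomal background of 13.5%. Neuropeptide genes had 1 of 34 on X (2.94%, 0.521 to 14.9), *ins-39* at rank 619 with GCGCAGG in its window, and 1 of 106 on the autosomes (0.943%, 0.167 to 5.15). Receptor and ligand-gated channel genes had 1 of 53 on X (1.89%, 0.334 to 9.94), *glr-6*, and 1 of 91 on the autosomes (1.10%, 0.194 to 5.96). For *twk* potassium channel genes the counts were 0 of 10 and 0 of 34, with upper limits of 27.8% and 10.2%. Cuticle collagens and other genes with *dpy*, *rol*, *bli* or *sqt* names had 2 of 33, *dpy-23* and *col-185*, and 11 of 161; *dpy-23* encodes an adaptin subunit and not a collagen.

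Among lists of X-linked genes alone, to be read against the X background of 6.55%, the genes of the X signal and of sex determination had 1 summit in 6 windows. It belonged to *ceh-39*, a ONECUT homeobox gene that counts X chromosomes, with a signal of 39.6 at rank 2100 and the summit at -153 bp. In *sex-1*, a nuclear hormone receptor gene that also counts X chromosomes, the summit at rank 719 lay in an intron, with signals of 51.7 and 30.02 in the replicates. No summit lay in the windows of *xol-1*, *fox-1*, an RNA-binding protein gene of the X signal, or *sdc-1* and *sdc-2*, which act in sex determination and dosage compensation. The X summits nearest to any part of these genes lay 1311 bp from *xol-1*, 12428 bp from *fox-1*, 30396 bp from *sdc-2* and 65897 bp from *sdc-1*.

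X-linked transcription factor genes had 5 of 33 with a summit, at *lsy-2*, *vab-3*, *nhr-25*, *sox-2* (rank 1024) and *lin-14* (rank 2443), and for instance none at *alr-1* or *ceh-14*. Chromatin genes had 1 of 10, the linker histone gene *his-24* at rank 1437. Muscle genes had 2 of 9, *lev-9* at rank 1118 and the actin gene *act-4* at rank 1750. Genes of axons, synapses and gap junctions had 1 of 14, *unc-115* at rank 1371. Signalling and junction genes had 2 of 12, *egl-17*, which encodes a fibroblast growth factor, at rank 1387, and *mom-1*, whose window held the same summit as that of *lev-9*. The share of the transcription factor list was 15.2% (6.65 to 30.9), with a lower limit just above the background of 6.55%. One of its 5 genes is *lsy-2*, where reads from the chromosome and from the transgene cannot be told apart. The share without that gene was not computed, so the list is not called different from the background. The intervals of the other 5 lists of X-linked genes include the background.

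Transfer RNA genes accounted for a far larger share of the peaks on X than elsewhere. A summit within 250 bp of a tRNA gene was found for 34 X peaks (12.7%, 9.22 to 17.2) and 34 autosomal ones (1.49%, 1.07 to 2.07), a difference of 11.2 points (7.68 to 15.7). X carries 276 of the 612 nuclear tRNA genes, or 45.1%. Per gene, 37 of the 276 on X had a summit (13.4%, 9.88 to 17.9) and 36 of 336 on the autosomes (10.7%, 7.84 to 14.5), and the difference of 2.69 points had an interval from -2.46 to 8.05.

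**Figure D5:**
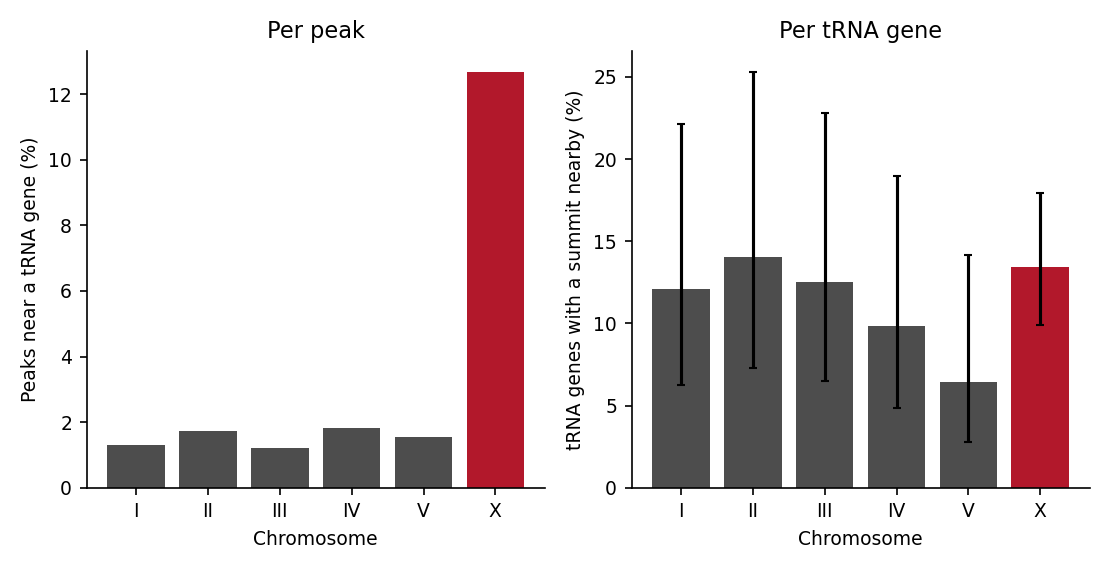
Left, share of the peaks of each chromosome with a summit within 250 bp of a tRNA gene (%); right, share of the tRNA genes of each chromosome with such a summit (%, with 95% Wilson intervals). X stands apart per peak, at 12.7% against 1.22% to 1.82% on single autosomes, and per gene its 13.4% lies within the autosomal range of 6.41% to 14.04%.

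These were mostly weak peaks. Their median signal was 48.3 on X and 44.6 on the autosomes, and 9 of the 34 X ones lay above the median rank of the list. The tRNA gene next to the strongest was WBGene00022939, 245 bp from the GCGCAGG peak upstream of *xol-1*. WBGene00022947 followed, at rank 547 with signals of 49.7 and 44.2 in replicates 1 and 2, and then WBGene00023042, at rank 871 with 30.5 and 44.7. On X 19 of the 34 summits lay in the other class, 6 in introns and 9 in promoter windows. On the autosomes 5, 19 and 10 did. The B box GGTTCGA, an internal promoter element of tRNA genes, was in 4 of the 34 X windows and 9 of the 34 autosomal ones, and in 0.649% and 0.741% of all windows. Genes for small nucleolar RNAs lay near 1 X summit and 57 autosomal ones, for small nuclear RNAs near 0 and 15, and for miRNAs near 0 and 10.

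Base composition under X summits was richer in G and C. The median GC content of the windows was 50.5% on X (quartiles 45.5% and 54.5%) and 45.5% on the autosomes (40.6% and 50.5%), while the chromosomes themselves hold 35.2% and 35.5%. In promoter windows the medians were 51.5% and 45.5%. The word GAGAGA was in 31.1% of X promoter windows and 19.1% of autosomal ones, 11.99 points apart (5.07 to 19.7). Away from promoters the order was the other way round, 20.6% and 31.0% (-10.4 points, -17.9 to -1.10). Of all windows 4.91% on X and 5.24% on the autosomes held it.

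Along X the summits were spread more evenly than along any autosome. With each chromosome cut into 10 equal stretches, those of X held from 19 to 36 summits, a ratio of 1.89, against ratios from 2.38 on I to 3.69 on V. Stretches 3 to 7, at the middle, held 42.2% of X summits and from 49.9% to 64.1% of those of single autosomes. Runs of 3 or more summits with neighbours at most 20 kb apart held 67 X summits of 268 and 52.7% of the autosomal ones, a difference of -27.7 points (-32.9 to -21.8), with X having the fewer peaks per Mb. The median spacing of X summits was 38.8 kb, and that of the 14 with GCGCAGG 862 kb.

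The longest run on X, 8 summits over 21.9 kb, lay at *lsy-2* (chrX:2089704-2093256), the gene the transgene carries. Besides the promoter and intron peaks, the other 6 had signals from 34.2 to 58.4, nearest to F53B1.3, F49H12.3, F49H12.2 and T21D9.2. The 8 are 2.99% of X peaks, and 4 of them were supported by both replicates. The share of the locus in the copies of the transgene was not tested. The other runs on X had 3 or 4 summits each.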

How the data were processed

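LSY-2 ChIP-seq peaks were available for 2 biological replicates of 1 group. The authors deposited, per the file headers and names, a list of 30000 peaks and background for each replicate and for the pooled replicates, and the shorter list of peaks past their IDR threshold, on ce11 and ce10. Each deposited peak has the authors' signal value, on a scale not given, a −log10 q-value, from 2.32 to 2.79 on X and not used, and the offset of the summit from its start in bp. Not given in the sources used here are the aligner, the peak caller and the IDR threshold. No read counts were used, so depth is unknown. Columns of per-sample values left unused numbered 0.

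From these lists, X and autosomal summits were set against Ensembl release 115 genes on WBcel235, with RefSeq sequence of the same assembly. Motifs were searched on both strands within 50 bp of the summit. GCGCAGGG contains GCGCAGG, its form with TC before contains both, and no other word searched contains another. Shares have 95% Wilson intervals and differences 95% Newcombe intervals, and no p-value was computed, since peaks are no replicates. The calculation was checked on simulated peaks. Each replicate's list was cut to the length of the IDR list, and a peak was supported by both replicates where it overlapped a peak of both cut lists by 1 bp. Genes were named by rule: the nearest genes of the 20 highest X peaks, those sharing their windows, all genes of the X signal list, *lsy-2*, up to 4 X-linked members of each of 18 lists with a summit and up to 2 without, the 3 highest peaks of each class off promoters, and 3 tRNA genes. Members, lists and rules were chosen with earlier results of these data known. GCGCAGGG, the other flanking bases, TACGGT and the genes named with it were chosen with values in view, as were the fifth transcription factor gene and the fifth and sixth *nhr* genes named, which go beyond the rule.

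Other settings were the stronger peaks alone, above the median rank, each replicate alone, merged overlapping peaks, peaks within 20 kb of *lsy-2* left out, promoter windows of 500 or 2000 bp upstream, peak midpoints, other distances, windows and overlaps, and the ce10 list. Leaving out soft-masked, tRNA or GCGCAGG summits was added after seeing the data. The calculations ran in Python 3.11.15 with scipy 1.17.1, pandas 2.3.3 and numpy 2.4.6, and figures in matplotlib 3.10.9.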

Additional observations from a re-analysis of the deposited data

How the results depend on the processing

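Of 90 alternative values for 12 results, 83 stayed as reported: differences kept their direction and their side of the interval, X shares stayed within their Wilson intervals, and the GC excess was equal to the reported one, since the replicates gave the same value and any shift was counted. The others follow. The X share of nuclear peaks, 10.5% in the IDR list, was 8.43% among peaks above the median rank and 12.1% with soft-masked summits left out. It ran from 10.3% to 11.2% with each replicate left out in turn. The deficit of X peaks among the strongest ran from -12.99 to -6.09 points with each replicate left out, and the interval of the latter, without replicate 2, included 0. The excess in median summit GC content of 4.95 points was 5.94 above the median rank, 7.21 with windows of 100 bp to each side and 3.96 with soft-masked summits left out. The difference in the share of peaks found by both replicates turned from -5.51 to 0.614 points above the median rank, and both intervals included 0; the cause of these shifts was not tested. No paired analysis was possible because there is 1 group and no comparison between groups. Depth limits which weak peaks could be listed, and is unknown here.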
